A study of Homo sapiens with 2 samples.

Results

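The transcripts described here encode the FOS and JUN family subunits of the transcription factor AP-1 (FOS, FOSB, FOSL1, FOSL2, JUN, JUNB and JUND), their relatives ATF2 and ATF7, and the immediate early factor EGR1. These 10 genes were chosen by symbol, out of 27856 genes with a value in the deposited table, with earlier results of the same libraries in view, among them the lower value of FOSL1. The differences between the libraries are therefore given as a description and carry no test. RNA of A549 cells, which derive from a human lung adenocarcinoma, was sequenced when 48 h had passed since transfection with a control siRNA or with an siRNA against MILIP, a long noncoding RNA that c-Myc induces and that is also called MAFG-AS1. Each condition was 1 library from a culture seeded in a 6-well plate, in medium with serum and antibiotics, and the study names its MILIP siRNA in these libraries as si-MILIP.2, so that a single siRNA stands for the knockdown. The study used the comparison to ask which genes respond to loss of MILIP.

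AP-1 is a dimer of basic leucine zipper (bZIP) proteins. FOS proteins bind DNA mainly when paired with a JUN protein, whereas JUN proteins can also pair with one another or with ATF2 and ATF7. The dimers read the site TGANTCA or the cyclic AMP response element TGACGTCA. FOS, FOSB, JUN, JUNB and EGR1 are immediate early genes, switched on within minutes of growth factor or stress signals through ERK and JNK kinases. FOSL1 and FOSL2 follow more slowly and lack the strong activation domain of FOS, and FOSL1 is known as the FOS protein that prolonged ERK signaling sustains.

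The promoters are shown first, so that their letters can be read beside the values that follow. The RefSeq table (build GRCh38.p14) matched 8 of the 10 members, all but FOSL1 and ATF2. Each window runs from 250 bases before to 50 bases after the annotated start. The letters TGACGT, the core of the cyclic AMP response element, were searched on both strands after the windows had been seen. They were held by 5 of the 8 members, FOS, FOSB, FOSL2, JUND and EGR1, compared with 7.98% of all 35116 promoters. Because the letters were picked with these windows in view, this comparison is a description only and does not set the members apart. Those 5 windows are printed 5′ to 3′, with the core TGACGT, the AP-1 site and the CArG box in capitals. The windows lie at chr14:75278578-75278877 on the + strand for FOS, chr19:45467746-45468045 on the + strand for FOSB, chr2:28392608-28392907 on the + strand for FOSL2, chr19:18281573-18281872 on the - strand for JUND and chr5:138465229-138465528 on the + strand for EGR1.
FOS: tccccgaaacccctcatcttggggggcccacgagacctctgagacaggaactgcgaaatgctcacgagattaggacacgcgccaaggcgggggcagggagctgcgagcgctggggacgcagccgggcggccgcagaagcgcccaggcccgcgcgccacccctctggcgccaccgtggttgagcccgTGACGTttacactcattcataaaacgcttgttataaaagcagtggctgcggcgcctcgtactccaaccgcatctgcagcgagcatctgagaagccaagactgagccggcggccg
FOSB: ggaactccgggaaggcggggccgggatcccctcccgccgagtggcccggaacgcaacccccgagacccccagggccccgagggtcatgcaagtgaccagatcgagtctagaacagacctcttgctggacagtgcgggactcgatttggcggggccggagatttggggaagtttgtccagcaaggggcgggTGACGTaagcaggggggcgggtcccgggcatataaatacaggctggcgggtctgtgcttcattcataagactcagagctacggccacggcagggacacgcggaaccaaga
FOSL2: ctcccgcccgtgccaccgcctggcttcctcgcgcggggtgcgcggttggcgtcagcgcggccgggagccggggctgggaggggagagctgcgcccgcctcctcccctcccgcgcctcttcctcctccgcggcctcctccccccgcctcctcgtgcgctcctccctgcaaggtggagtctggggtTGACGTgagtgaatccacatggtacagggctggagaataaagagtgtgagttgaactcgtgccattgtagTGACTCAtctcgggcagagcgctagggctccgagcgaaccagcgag
JUND: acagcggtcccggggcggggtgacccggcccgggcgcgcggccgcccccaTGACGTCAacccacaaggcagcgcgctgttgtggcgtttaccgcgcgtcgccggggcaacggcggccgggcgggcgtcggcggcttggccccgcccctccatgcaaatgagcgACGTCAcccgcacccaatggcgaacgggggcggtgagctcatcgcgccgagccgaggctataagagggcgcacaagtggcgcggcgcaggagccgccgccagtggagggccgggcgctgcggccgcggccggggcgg
EGR1: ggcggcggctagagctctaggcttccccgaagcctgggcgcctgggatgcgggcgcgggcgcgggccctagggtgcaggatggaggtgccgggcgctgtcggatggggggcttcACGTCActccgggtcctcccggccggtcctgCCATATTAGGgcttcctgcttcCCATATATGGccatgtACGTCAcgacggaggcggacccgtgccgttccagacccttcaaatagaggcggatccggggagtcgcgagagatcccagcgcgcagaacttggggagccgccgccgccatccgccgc

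The AP-1 site TGANTCA was found only in the FOSL2 window, as TGACTCA at position 5 after the start, and it is held by 7.71% of all promoters. The complete response element TGACGTCA was found only in the JUND window, at position -200, against 1.85% of all promoters, and it contains TGACGT on both strands. EGR1 alone held the CArG box, the site of serum response factor, at positions -105 and -83, a motif present in 1.29% of promoters. TGACGT lay at nearly the same distance from the RefSeq start in FOS (-64), FOSB (-60) and FOSL2 (-66), and EGR1 held it in reverse at -136 and -67. The FOSL2 and JUN windows lie inside the genes as GENCODE annotates them, beginning at 28392448 and 58784327. The FOS window reaches ahead of its gene, but its RefSeq start lies inside the gene, which GENCODE begins at 75278774. The ATF7 windows with lowest coordinates 53625941 and 53625947 also lie inside their gene, which begins at 53626410 on the - strand. Distances in all of these windows thus depend on the start that is taken. TATAAA followed at -33 in FOS and -30 in FOSB and was also present at -31 in JUNB, compared with 11.5% of all promoters. CCAAT was held by JUN, JUNB, JUND and ATF7 (34.6% of all promoters), GGGCGG by FOS, FOSB, FOSL2, JUN, JUND and ATF7 (45%), the E-box CACGTG by ATF7 alone (7.26%) and GCGNGGGCG, the EGR site, by EGR1 alone (9.43%). A member with several windows, such as ATF7, was counted if any of them held the motif, whereas the percentages are per promoter. In ATF7 the E-box lay in a different window from CCAAT and GGGCGG. These matches describe letters in a window of 300 bases and are not evidence that a factor was bound. Sites outside the windows, or with letters that depart from these motifs, were not searched. A gene without a match here may therefore still hold such a site.

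The values are read counts that the authors scaled by a single factor per library, and 1 read is worth 0.0501 in the control library and 0.0503 in the other. In reads, the listed genes add up to 20300800 and 19460956. A gene with fewer than 20 reads is listed at 0. The values of MILIP itself were 29.5 with control siRNA and 3.22 under its knockdown, from 588 and 64 reads, and those of its neighbor MAFG were 190 and 176. The A549 label was compared with marker genes. The keratins KRT8 and KRT18 were at 2543 and 641 in the control library and at 2875 and 655 after MILIP siRNA, and NQO1, AKR1B10, AKR1C1, AKR1C2 and ALDH1A1, which are abundant in A549, were each above 580. The epithelial marker EPCAM was low, at 2.65 and 5.93. CDKN2A, which A549 cells have lost, and the leukocyte gene PTPRC have no value, PECAM1, HBB and COL3A1 are listed at 0, and the monocyte marker CD14 was at 4.46 and 9.60. KRT19 (62.1 and 121.9) and CDH1 (30.5 and 50.8) were also higher in the MILIP siRNA library. Whether the marker differences play a part in the values below was not tested.

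FOS and FOSB transcripts were more abundant after MILIP siRNA, and FOSL1 was more than 2-fold less abundant, whereas FOSL2, JUN, JUNB and JUND had log2 ratios of 0.40 to 0.49 and did not pass the threshold used here. The log2 ratio of the knockdown library to the control library, with 1 added to both values, was taken for the 13521 genes whose mean value reached 1, which included all 10 members. A gene was called higher or lower from a difference of 1.5-fold. By this rule 2 of the 10 members were higher (FOS and FOSB), against 11.1% of all genes measured, and 1 was lower (FOSL1), against 13.8% of all genes. Counts this small do not set the members apart from other genes. By sign, 7 of the 10 members had a log2 ratio above 0, against 6469 of the 13521 genes, and the median over the 10 was 0.45, compared with -0.03 over all genes. With 1 library per condition the spread between cultures is not known, and the 95% Clopper-Pearson limits given below, on the ratio without the pseudocount, cover counting error only. In RNA from whole cultures, a change in the share of cells that express a gene and a change in RNA per cell cannot be told apart.

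**Figure D1:**
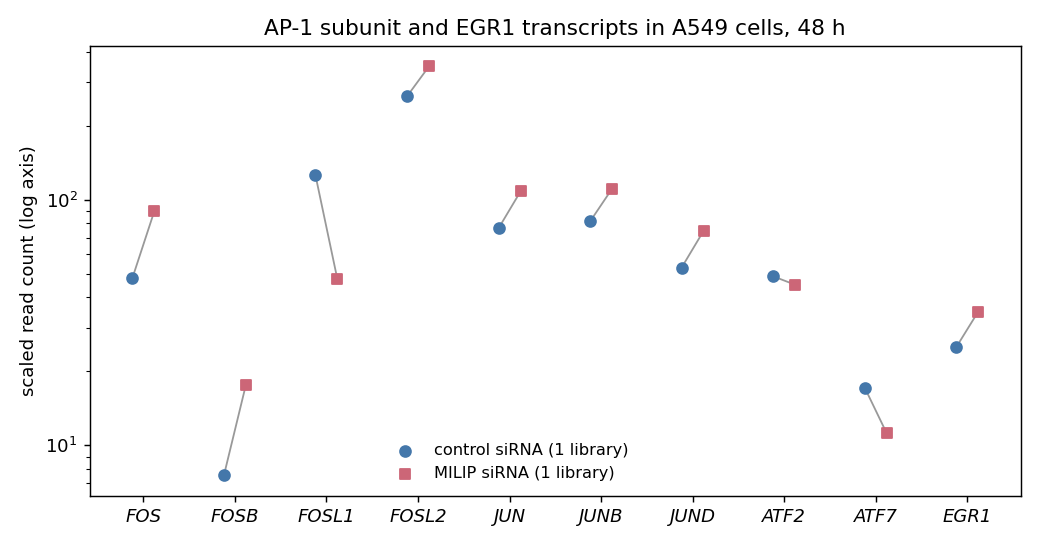
Scaled read counts of the 10 genes on a log axis, with circles for the control library and squares for the MILIP siRNA library (1 library each, no error bars). FOSL1 is at 125.5 and 47.3, FOS at 48.0 and 89.9, and none of the 3 JUN genes differs by 1.5-fold.

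FOSL1 (ENSG00000175592) encodes FRA-1 and is annotated on the - strand of chromosome 11, 65892049 to 65900573 (GRCh38, GENCODE release 29). Its value was 125.5 with control siRNA and 47.3 with MILIP siRNA, from 2506 and 941 reads. The log2 ratio was -1.39, and without the pseudocount FOSL1 was 2.65-fold lower (limits 2.46 to 2.86). Ranked from the lowest ratio, it was at place 259 of the 13521 genes. The 3′ untranslated region of FOSL1, and the rest of its longest coding transcript, did not contain GACCCTA, the letters that pair with the seed (bases 2 to 8) of the siRNA. None of the other 9 members held a match in its transcript either, whereas 5.32% of 12150 measured genes held one in the 3′ untranslated region.

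FOS (ENSG00000170345, chromosome 14, 75278774 to 75282230, + strand) encodes the prototype of the family. It was listed at 48.0 in control cells and 89.9 after knockdown, from 958 and 1787 reads (log2 ratio 0.89). Without the pseudocount this is a 1.87-fold difference (limits 1.73 to 2.03), and the lower limit lies above the 1.5-fold threshold. FOSB (ENSG00000125740, chromosome 19, 45467995 to 45475179, + strand), whose protein is close to FOS in structure, had the highest ratio of the 10 genes and the fewest reads in the control library. Its value was 7.56 and then 17.6, from 151 and 351 reads, with a log2 ratio of 1.12 and a 2.33-fold difference (limits 1.92 to 2.84). FOSL2 (ENSG00000075426, chromosome 2, 28392448 to 28417312, + strand), which encodes FRA-2, had the most reads of any member in both libraries. It was listed at 263 and 348, from 5253 and 6928 reads. Its log2 ratio of 0.40 (1.32-fold, limits 1.28 to 1.37) did not reach the threshold.

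The summed reads of the FOS family therefore differed less between the libraries than its members did. The summed value of the 4 genes was 444 in control cells and 503 after knockdown, a 1.13-fold difference (limits 1.10 to 1.17). This sum rests on FOSL2, since without it the sum was lower after MILIP siRNA, 181 against 155. It is not divided by length, so that long transcripts weigh more, and the exons of FOSL2 span 7157 bases against 1887 for FOSL1. Per kilobase of exons, FOSL2 was at 36.8 and 48.7 and FOSL1 at 66.5 and 25.1. The sum thus does not stand for the number of transcripts. The makeup of the family's reads shifted. FOSL1 held 28.3% of the family's reads in the control library (exact binomial interval 27.3% to 29.2%) and 9.40% after MILIP siRNA (8.84% to 9.99%). FOS went the other way, from 10.8% (10.2% to 11.5%) to 17.9% (17.1% to 18.6%), and FOSB from 1.70% to 3.51%. FOSL2 held 59.2% and 69.2%. Within the control library there were 0.382 FOS reads for each FOSL1 read (0.354 to 0.412), and within the MILIP siRNA library there were 1.90 (1.75 to 2.06), a ratio that does not depend on the scaling of the libraries.

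**Figure D2:**
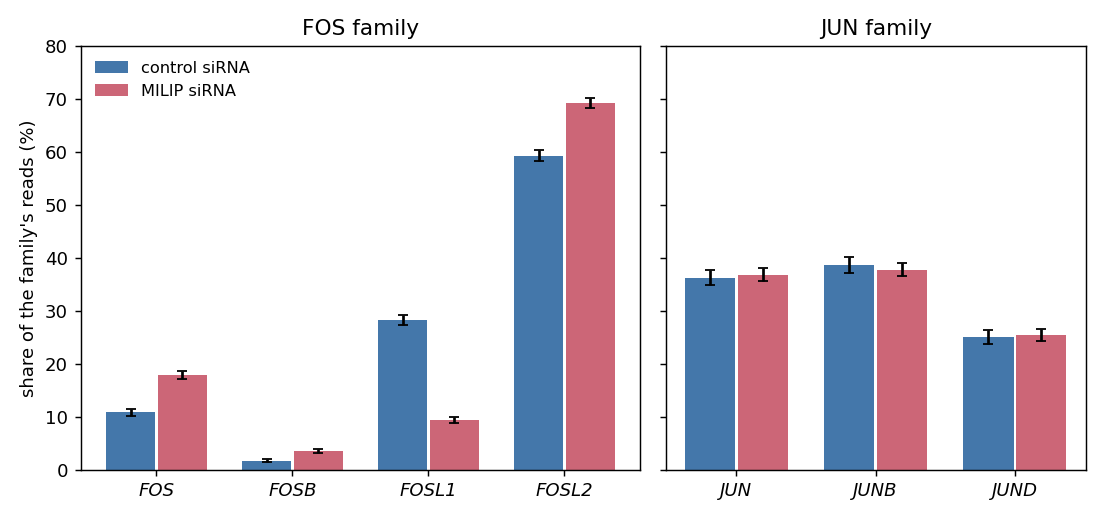
Shares of the reads of the FOS family (left) and the JUN family (right) held by each gene, in percent, with exact 95% binomial intervals for counting error as error bars and 1 library per bar. The FOSL1 share is 28.3% with control siRNA and 9.40% with MILIP siRNA, whereas the intervals of each JUN gene overlap between the libraries.

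The 3 JUN genes, which consist of a single exon each, had log2 ratios between 0.44 and 0.49, a closeness that was lost with the GC trend removed (JUN 0.43, JUNB 0.20 and JUND 0.25). JUN (ENSG00000177606, chromosome 1, 58780788 to 58784327, - strand), the partner that binds DNA most strongly with FOS proteins, was listed at 76.4 and 108, from 1526 and 2147 reads, a log2 ratio of 0.49 (1.41-fold, limits 1.32 to 1.51). JUNB (ENSG00000171223, chromosome 19, 12791496 to 12793315, + strand), a weaker activator that can oppose JUN, was at 81.5 and 111 (1627 and 2201 reads), a log2 ratio of 0.44 (1.36-fold, limits 1.27 to 1.45). JUND (ENSG00000130522, chromosome 19, 18279760 to 18281622, - strand), known for its steady expression in resting cells, was at 52.9 and 74.6 (1056 and 1484 reads), a log2 ratio of 0.49 (1.41-fold, limits 1.30 to 1.53). None of the 3 passed 1.5-fold, and their limits without that adjustment overlapped one another. The JUN family sum was 211 and 293, a 1.39-fold difference (limits 1.34 to 1.45). The makeup of the family stayed close between the libraries. JUN held 36.3% and 36.8% of its reads, JUNB 38.7% and 37.7% and JUND 25.1% and 25.4%, and for each gene the binomial intervals of the libraries overlapped. JUNB exons share 259 bases, 14.2% of their length, with HOOK2 on the opposite strand, and the strand setting of the counting is not given in the sources used here.

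ATF2 and ATF7, close paralogs that JNK and p38 kinases activate and that pair with JUN, were, besides FOSL1, the members with a log2 ratio below 0. ATF2 (ENSG00000115966, chromosome 2, 175072250 to 175168382, - strand) was at 48.7 and 45.1, from 973 and 896 reads, a log2 ratio of -0.11, and its limits without the pseudocount ran from -0.25 to 0.02. ATF7 (ENSG00000170653, chromosome 12, 53507856 to 53626410, - strand) was at 17.2 and 11.2, from 343 and 223 reads, a log2 ratio of -0.57. ATF7 sat at the threshold, being 1.49-fold lower with the pseudocount and 1.53-fold lower without it (limits 1.29 to 1.82), so that 2 members were called lower without the pseudocount. Its exons share 1456 bases (18.2%) with the protein-coding gene AC023509.3 on the same strand and 2043 bases (25.6%) with the antisense gene AC023509.2, and reads there could be assigned to either gene or dropped.

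EGR1 (ENSG00000120738, chromosome 5, 138465490 to 138469315, + strand), a zinc finger factor and not an AP-1 subunit, is induced by the same signals as FOS. Its value was 25.1 with control siRNA and 35.0 with MILIP siRNA, from 501 and 696 reads. The log2 ratio of 0.46 (1.39-fold, limits 1.24 to 1.57) was close to those of the JUN genes. EGR1 and the 4 genes FOSL2, JUN, JUNB and JUND thus fell between 0.40 and 0.49, a range that held 535 genes, these 5 included, and 18.4% of all genes measured had a log2 ratio of 0.40 or more. GC-rich transcripts had higher ratios than AT-rich ones, the median being -0.24 in the lowest and 0.24 in the highest of 50 bins of transcript GC content. The members are mostly GC-rich, up to 64.9% for JUNB and 69.7% for JUND against a median of 48.8% over the measured genes. With the median of each gene's GC bin subtracted, an alternative chosen after the data had been seen, JUNB was at 0.20 and JUND at 0.25, and ATF2, whose transcript has 36.9% GC, was at 0.14, above 0. FOS (0.92), FOSB (1.02) and FOSL1 (-1.51) stayed past 1.5-fold in this adjustment.

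**Figure D3:**
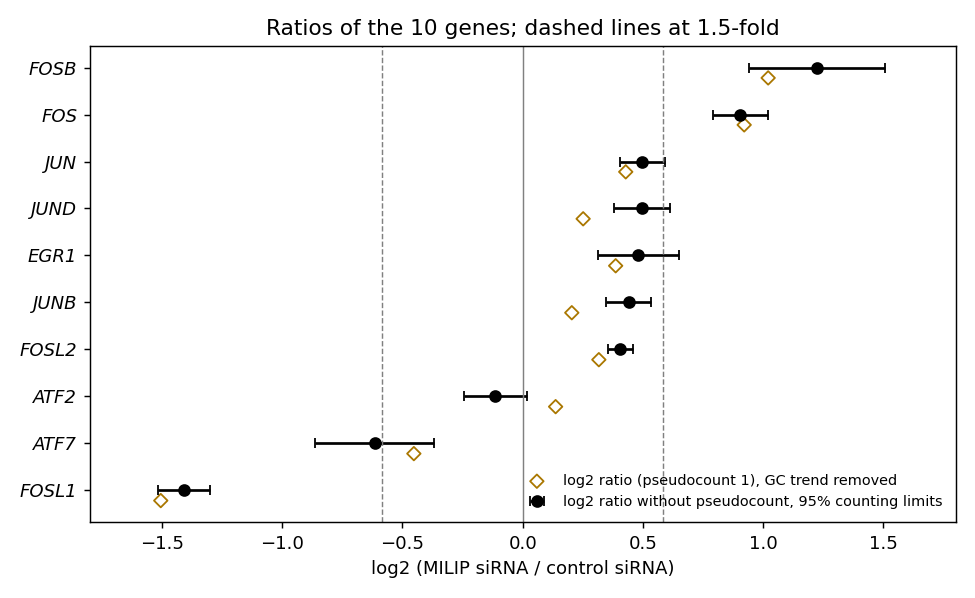
Log2 ratios (MILIP siRNA to control siRNA) of the 10 genes on the x axis, with circles for the ratio without a pseudocount, error bars for its 95% Clopper-Pearson limits (counting error only) and diamonds for the ratio with the GC trend removed. FOSB, FOS and FOSL1 lie beyond the dashed 1.5-fold lines under both, and ATF2 changes side of 0.

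Levels of different genes were compared per kilobase, by dividing the value by the length of the union of each gene's annotated exons. On this scale FOSL1 was the most abundant member in the control library, at 66.5 per kilobase (exact Poisson interval 63.9 to 69.2). JUNB followed at 44.8, FOSL2 at 36.8, JUND at 28.4, JUN at 21.6 and FOS at 14.8. ATF2 (8.47) and EGR1 (8.0) came next and did not differ beyond their counting intervals, and ATF7 (2.15) and FOSB (1.36) were lowest. After MILIP siRNA, FOSL1 was at place 6 with 25.1 per kilobase, and JUNB was highest at 60.8. FOSL2 followed at 48.7, JUND at 40.1, JUN at 30.5 and FOS at 27.7, and the intervals of FOS and FOSL1 overlapped. EGR1 was at 11.2, ATF2 at 7.83, FOSB at 3.18 and ATF7 at 1.41. With the length of the longest coding transcript in place of the union of exons, FOSL1 was again at place 1 in the control library, with 75.2 per kilobase, and at place 6 after MILIP siRNA, with 28.3, while FOS moved to place 5 and place 3. The order of the genes thus depends on the length that is assumed, and which isoforms were expressed was not measured.

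Other bZIP proteins that can join AP-1 dimers were read from a list of 18 genes, of which 15 passed the expression filter. Of these, 4 were at least 1.5-fold higher (26.7%, against 11.1% of all genes) and 0 were lower (13.8% of all genes), and the median log2 ratio was 0.15. Only 2 were higher when a mean of 5 was required, and counts this small do not set the list apart. JDP2, a repressor that pairs with JUN proteins, was at 17.3 in control cells and 36.4 after knockdown (log2 ratio 1.03). The stress-induced ATF3 was at 12.7 and 21.1 (0.69), CREB5, a relative of ATF2, at 2.65 and 4.73 (0.65), and MAF at 1.90 and 3.42 (0.61). The last of these rests on 38 and 68 reads. BATF, BATF2, BATF3, CREM, CREB1, BACH1 and the small MAF genes were not called, and BATF and BACH2 are listed at 0 in both libraries.

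Of 28 immediate early genes beyond the members, 25 passed the filter and 18 of them did not reach 1.5-fold. The 6 higher ones were 24.0% of those measured, against 11.1% of all genes, and the 1 lower one was 4.0%, against 13.8%. By sign, 21 of the 25 had a log2 ratio above 0, against 6469 of 13521 genes, and their median was 0.35 against -0.03. The list was chosen with earlier results of these libraries known, so these figures are a description and do not set it apart. BTG2, an antiproliferative gene, was at 23.7 and 53.8 (log2 ratio 1.15), the nuclear receptor NR4A3 at 2.35 and 5.78 (1.02), the kinase SGK1 at 30.4 and 59.4 (0.94), NR4A2 at 4.61 and 8.85 (0.81) and ATF3 at 0.69 as above. KLF4, at 11.2 and 18.7 (0.69), completes the 6. MYC was the 1 lower gene, at 178 and 112, a log2 ratio of -0.67. Classic companions of FOS such as IER2 (44.0 and 56.4), ZFP36 (37.3 and 36.4) and CCN1 (67.1 and 70.5) were not called. NR4A1 (35.2 and 51.2, log2 ratio 0.53), PPP1R15A (79.3 and 115, 0.53) and ARC (2.15 and 3.72, 0.58) were not called either but lay closer to the threshold. EGR2, EGR3 and EGR4 are listed at 0 in both libraries. NAB1 and NAB2, the corepressors that EGR1 recruits, were at 56.0 and 65.3 and at 26.6 and 23.5, and neither was called.

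Of 26 genes for the kinases of the ERK, JNK and p38 cascades, which relay signals to FOS and JUN, 24 were measured. Of these 1 was higher and 1 was lower (4.17% each, against 11.1% and 13.8% of all genes), with a median log2 ratio of -0.05. RPS6KA1, which encodes the ERK-activated kinase RSK1, was at 28.6 and 47.1 (0.70), and MAP2K6, an activator of p38, was at 26.8 and 12.8 (-1.01). MAPK9, which encodes JNK2, lay just inside the threshold at 91.4 and 61.2 (-0.57). The factors that act on the FOS and EGR1 promoters, SRF (53.9 and 55.9), ELK1 (54.8 and 53.0) and ELK4 (40.7 and 47.4), were not called, whereas the SRF coactivator MRTFB was lower, at 50.1 and 27.8 (-0.83). It was the only one called of the 8 genes in its list. This makes 12.5% lower, near the 13.8% of all genes, and 0 higher, against 11.1% of all genes.

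Of 10 dual-specificity phosphatases, which switch off these kinases, 9 were measured. Of these 3 were higher (33.3%, against 11.1% of all genes) and 1 was lower (11.1%, against 13.8%), small counts that do not set the list apart, and the median log2 ratio was 0.48. DUSP8 was at 4.16 and 14.2 (log2 ratio 1.56) and DUSP16 at 45.6 and 102 (1.15), both known to act on JNK, and DUSP10 at 4.01 and 7.04 (0.68). DUSP7, which acts on ERK, was at 26.2 and 7.84 (-1.62). DUSP1, itself an immediate early gene, was at 299 and 418 and DUSP6, a common readout of ERK activity, at 15.2 and 10.8, and neither reached 1.5-fold.

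Genes for the turnover of the JUN protein were read from a list of 12, all measured, of which 1 was higher (8.33%, against 11.1% of all genes) and 3 were lower (25.0%, against 13.8%). FBXW7, the substrate receptor that marks phosphorylated JUN for destruction, was at 15.6 and 25.6 (log2 ratio 0.68). The ubiquitin ligase scaffolds CUL4A (108 and 53.6, log2 ratio -1.0) and CUL1 (111 and 61.2, -0.84) and the adaptor DDB1 (366 and 217, -0.75) were lower. COP1, the receptor that brings JUN to the CUL4A complex, was at 47.3 and 47.1. JUN protein was not measured in these libraries.

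Genes known as AP-1 targets differed in both directions. Of the 40 listed, 33 were measured, with 4 higher and 5 lower, shares of 12.1% and 15.2% that lie near those of all genes, and a median log2 ratio of -0.18. The lower ones were the integrin ITGA2 (235 and 83.2, log2 ratio -1.49), the receptor EGFR (261 and 103, -1.33), the chromatin proteins HMGA2 (187 and 74.9, -1.31) and HMGA1 (1017 and 526, -0.95) and the cyclin CCND1 (762 and 408, -0.90). The higher ones were SPP1, which encodes osteopontin (218 and 391, 0.84), the chemokine CXCL8 (25.9 and 47.1, 0.83), TGFB1 (128 and 222, 0.79) and SERPINE2 (127 and 192, 0.59), the last just past the threshold of 0.58. Urokinase and its receptor, often used as readouts of FOSL1, were not called, with PLAU at 207 and 185 and PLAUR at 56.9 and 59.4. The matrix metalloproteinases MMP1, MMP3, MMP13 and the cytokine IL6 are listed at 0 in both libraries, and MMP9 had 26 reads with control siRNA and is listed at 0 with MILIP siRNA. A seed match of the MILIP siRNA in the 3′ untranslated region was held by 5.32% of 12150 measured genes. Over all lists together, it was held by 4 of the 12 lower genes (MAP2K6, MRTFB, DUSP7 and CUL4A). It was also held by 1 of the 18 higher genes (TGFB1) and by 0 of the other 94. The regions of the 4 lower genes were 12108, 5327, 1896 and 3526 bases long, and a longer region has more room for a match. The lower and higher genes outside the lists were not split by seed match. Whether pairing with the siRNA plays a part in the lower values of these 4 genes was not tested.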

How the data were processed

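RNA of A549 cells was sequenced 48 h after transfection, with 1 library per condition. Per the submitters' processing notes, TopHat2 2.0.12, HTSeq 0.6.1 and build hg38 were used, in roles that are not stated. The annotation, the strand setting and the scaling method are not given in the sources used here. The deposited values are named as read counts but are a scaled signal: in each library 100% of the values above 0 were whole multiples of a fixed step to within 0.05 reads, so the authors had scaled the counts by a factor per library and listed genes under 20 reads at 0. The 4 columns of the authors' own comparison (log2 fold change, p-value, q-value and call) were not used.

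Symbols were matched by Ensembl ID, and 13365 of 13521 measured genes had one. For genes whose mean reached 1, log2 ratios were taken after adding 1 to each value. Such ratios understate the changes of low genes. Limits on ratios and shares are exact at 95% and, like the Poisson intervals per kilobase, cover counting error only. No p-value was computed. Exon lengths, transcripts and 3′ untranslated regions came from GENCODE release 29 (GRCh38), with the longest coding transcript per gene, and promoters from RefSeq (GRCh38.p14). GC content was available for 99.1% of measured genes. The members and gene lists were chosen with earlier results of these data known. All 10 members, MILIP and MAFG are named, and from each list up to 5 of the highest and 5 of the lowest genes past 1.5-fold, genes listed at 0 in 1 library, and a few genes that were not called, chosen after their values were seen. KLF4 was added in this way too. Some listed genes are not reported here. The alternatives were a pseudocount of 0.1 or none, scaling by the median of ratios or by total reads, no filter, a filter at a mean of 5, calls at 2-fold, leaving out the largest member of a family and, added after the data had been seen, removal of the GC trend. The calculations were tested on simulated data. Software was numpy 2.4.6, scipy 1.17.1, pandas 2.3.3 and matplotlib 3.10.9 under Python 3.11.15.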

Additional observations from a re-analysis of the deposited data

How the results depend on the processing

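No paired analysis was possible because only 1 library per siRNA was analysed, which also leaves none to drop. The log2 ratios of the 10 members kept their sign under a pseudocount of 0.1, no pseudocount, scaling by the median of ratios and scaling by total reads, with a largest shift of 0.10. Under these, FOSL2 moved by more than its counting error with total reads, to 0.46. With the GC trend removed, 9 of 10 kept their sign, ATF2 being the exception at 0.14, and FOSL1 was at -1.51, FOSL2 at 0.32, JUNB at 0.20 and JUND at 0.25. The number of members called lower was 1, and it was 2 with a pseudocount of 0.1 and 2 with none, since ATF7 sits at the threshold. At 2-fold, 1 member was higher, and over all genes 471 were higher and 625 lower, by construction fewer than the 1507 and 1869 at 1.5-fold. Scaling by the median of ratios shifts all genes by 0.03. The log2 ratio of the FOS family sum, which is not divided by length, was 0.18, and -0.23 without FOSL2, the member with the most reads. Of the counts per list, 10 moved by more than 1.5 times. The bZIP partners called higher went from 4 to 2 at a mean of 5. At 2-fold the genes called higher were 1 bZIP partner, 2 immediate early genes and 0 kinases, turnover genes and AP-1 targets, and the genes called lower were 0 immediate early genes, 0 promoter factors, 1 turnover gene and 3 AP-1 targets. Differences of the size seen for FOSL2, the JUN genes and EGR1 exceed their counting error, but the depth says nothing of the spread between cultures.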

Other observations

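AU-rich elements in the 3′ untranslated region mark many short-lived messenger RNAs, immediate early genes among them. The nonamer TTATTTATT was held by FOS and FOSL2 among the 10 members, compared with 1140 of 12150 measured genes (9.38%), and the pentamer ATTTA was most dense in FOS, with 5 copies or 6.20 per kilobase, followed by JUNB with 4.0 and ATF2 with 3.39. The log2 ratios of FOS and FOSL2, the 2 members with the nonamer, were 0.89 and 0.40. Over all genes with the nonamer the median log2 ratio was -0.18, with 6.05% at least 1.5-fold higher and 22.5% at least 1.5-fold lower, whereas the 11010 genes without it had a median of -0.01, with 11.8% higher and 13.2% lower. FOS and FOSL2 therefore both stood on the other side of 0 from the median of the genes that share this element. These figures describe the 2 libraries, and whether the base composition of such transcripts plays a part was not tested.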
